A study of Homo sapiens with 8 samples.

Results

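The binding of mTOR to chromatin in androgen-deprived LNCaP cells was compared between a FoxA1 hairpin and an empty vector, as the peaks present in 1 of the 2 deposited lists and absent from the other. LNCaP is an established human prostate cancer line that needs androgen for growth. The shFoxA1 EtOH cells carried a hairpin against FoxA1 and the shEV EtOH cells the empty hairpin vector. Both spent 48 h in RPMI whose serum (2%) had been stripped of steroids with charcoal, and then 24 h with the vehicle ethanol at 0.1%. A second pair of lists, shFoxA1 R1881 and shEV R1881, came from cells handled the same way but given 10 nM of the synthetic androgen R1881 in place of ethanol. Each group was 1 library, so no difference has a replicate check and no test was made. These files do not measure how far FoxA1 itself was reduced.

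mTOR is the kinase at the core of 2 complexes, mTORC1 and mTORC2, that adjust protein, lipid and nucleotide synthesis to nutrients and growth signals. Most of it acts in the cytoplasm and on lysosomes, and a nuclear pool can be recovered with chromatin. FoxA1 is a forkhead pioneer factor that binds nucleosomal DNA and gives other factors, steroid receptors among them, access to enhancers in prostate cells.

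On chromosomes 1 to 22, X and Y the 2 EtOH lists held 60069 of the 125713 peaks in the 4 mTOR lists, 35121 in shFoxA1 EtOH and 24948 in shEV EtOH. A shFoxA1 EtOH peak that no shEV EtOH peak overlapped by at least 1 bp is called gained, and a shEV EtOH peak that no shFoxA1 EtOH peak overlapped is called lost. There were 17281 gained peaks, 49.2% of the shFoxA1 EtOH list, and 6994 lost peaks, 28.0% of the shEV EtOH list. The other 17840 shFoxA1 EtOH peaks and 17954 shEV EtOH peaks were shared. The words describe presence in 2 thresholded lists and not a measured change in binding. The lists covered 21.1 Mb in shFoxA1 EtOH and 14.2 Mb in shEV EtOH, with median widths of 471 bp and 452 bp. The read depth of each library is unknown, so a longer list and a deeper library cannot be told apart, and the comparisons of class, GC and gene lists are also given with lists of equal length. All intervals are 95% intervals for counting error only.

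Reference promoter windows are printed for some of the strongest promoter peaks of each set. A window can extend beyond its peak. Promoters are printed from RefSeq on GRCh38.p14, as the 300 bases from 250 before to 50 after a gene's start, in lower case. Capitals mark matches, on either strand, to 12 short motifs searched in all 15842 coding-gene windows. They were the ETS-type CCGGAAG, the NRF1 half-site GCATGCGC, the SP and KLF box GGGCGG, the CREB site TGACGTCA, the E-box CACGTG, the YY1-type AANATGGCG, the CCAAT box, the TATA box TATAAA, a forkhead motif TGTTTAC with its second form TATTTAC, the AP-1 site TGANTCA and the steroid receptor half-site AGAACA. Matches may overlap, and a match describes letters only. First come 3 windows that a gained promoter peak overlapped, then 2 that a lost promoter peak overlapped, then FOXA1, the gene the hairpin was directed against.
TXNIP: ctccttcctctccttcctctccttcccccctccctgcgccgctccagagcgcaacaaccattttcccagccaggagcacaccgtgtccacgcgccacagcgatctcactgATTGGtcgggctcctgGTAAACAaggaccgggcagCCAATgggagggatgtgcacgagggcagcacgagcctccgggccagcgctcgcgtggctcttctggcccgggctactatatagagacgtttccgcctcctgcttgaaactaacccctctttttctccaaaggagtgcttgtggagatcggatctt
FOXJ3: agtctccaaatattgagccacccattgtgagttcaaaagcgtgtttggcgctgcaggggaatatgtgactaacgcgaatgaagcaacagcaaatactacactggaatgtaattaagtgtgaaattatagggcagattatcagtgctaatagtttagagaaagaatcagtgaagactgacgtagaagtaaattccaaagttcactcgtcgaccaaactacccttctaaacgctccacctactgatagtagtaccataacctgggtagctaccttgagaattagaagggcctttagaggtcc
C19orf73: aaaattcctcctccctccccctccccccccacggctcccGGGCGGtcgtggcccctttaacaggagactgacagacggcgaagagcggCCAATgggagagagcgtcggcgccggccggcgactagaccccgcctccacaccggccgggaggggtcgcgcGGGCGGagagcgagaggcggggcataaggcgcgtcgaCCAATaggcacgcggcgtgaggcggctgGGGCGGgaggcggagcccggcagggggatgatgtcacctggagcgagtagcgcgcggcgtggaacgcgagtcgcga
GPATCH2: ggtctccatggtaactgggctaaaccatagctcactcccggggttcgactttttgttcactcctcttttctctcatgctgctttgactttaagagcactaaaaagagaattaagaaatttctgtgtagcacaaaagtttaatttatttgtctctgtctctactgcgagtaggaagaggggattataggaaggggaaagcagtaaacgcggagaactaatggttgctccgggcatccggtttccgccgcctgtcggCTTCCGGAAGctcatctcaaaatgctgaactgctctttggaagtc
TAF5: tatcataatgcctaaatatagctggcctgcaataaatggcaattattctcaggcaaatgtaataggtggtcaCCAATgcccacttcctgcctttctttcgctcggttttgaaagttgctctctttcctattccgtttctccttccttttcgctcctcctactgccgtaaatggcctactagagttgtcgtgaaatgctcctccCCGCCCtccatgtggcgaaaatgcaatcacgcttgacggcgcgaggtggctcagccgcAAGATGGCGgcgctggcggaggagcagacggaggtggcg
FOXA1: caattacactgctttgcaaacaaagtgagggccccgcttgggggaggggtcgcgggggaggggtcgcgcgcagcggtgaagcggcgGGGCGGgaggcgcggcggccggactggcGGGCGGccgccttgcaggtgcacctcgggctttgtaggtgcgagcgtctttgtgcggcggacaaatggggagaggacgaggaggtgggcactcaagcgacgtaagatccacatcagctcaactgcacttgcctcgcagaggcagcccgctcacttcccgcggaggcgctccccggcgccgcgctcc
The windows lie at chr1:145996530-145996829 (TXNIP), chr1:42335831-42336130 (FOXJ3), chr19:49119094-49119393 (C19orf73), chr1:217631041-217631340 (GPATCH2), chr10:103367726-103368025 (TAF5) and chr14:37595200-37595499 (FOXA1). All are on the minus strand of GRCh38.p14 except TAF5, which is on the plus strand, and the sequence is printed on the gene's strand.

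TXNIP had the gained peak with the highest score, 401, at chr1:145996411-145996917 of hg38, centred 85 bp upstream of the annotated start. TXNIP is an arrestin-like protein that binds thioredoxin and limits glucose uptake. Its window, at 60.3% GC, holds 1 forkhead match (GTAAACA, the reverse complement of TGTTTAC) between 2 CCAAT boxes, 1 of them on the opposite strand. The FOXJ3 peak (score 297, 69.98% GC) was assigned to a start other than the one printed, and reached only the downstream end of a window that has 42.0% GC and none of the 12 motifs. The C19orf73 peak (score 247) is annotated to the promoter of PPFIA3, the neighbouring gene, and its window, at 72.3% GC, holds 3 GGGCGG boxes and 2 CCAAT boxes. The window of GPATCH2, with the highest-scoring lost promoter peak (score 125), has 46.0% GC and a palindromic pair of overlapping CCGGAAG matches near the start. The window of TAF5, a subunit of the general transcription factor TFIID, holds a CCAAT box, a GGGCGG box on the opposite strand and, just past the start, an AAGATGGCG match to the YY1 motif. The TAF5 peak ended at chr10:103367840, and of these matches only the CCAAT box lies under it. The FOXA1 window, at 69.3% GC, holds 2 GGGCGG boxes and no match to the forkhead forms TGTTTAC and TATTTAC. It does hold GCAAACA, the reverse complement of TGTTTGC, which was not among the motifs searched.

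At FOXA1 itself the shFoxA1 EtOH list had 5 peaks within 50 kb and the shEV EtOH list 3, and none was lost. The 2 gained peaks were a promoter peak at chr14:37594642-37595682 (score 58, 71.3% GC, centred 87 bp from the start of FOXA1 and annotated to the start of the neighbour TTC6) and a CpG-island peak at chr14:37583533-37584786 (score 75, centred 11090 bp away). Shared peaks lay on exon 2 of 2, on a second CpG island and on a low-GC site at the end of a neighbouring transcript. In the R1881 lists FOXA1 had 5 peaks with shFoxA1 and 3 with shEV. The gained promoter peak overlapped a shFoxA1 R1881 peak and no shEV R1881 peak, while the gained island peak overlapped a peak in both.

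Gained peaks lay at promoters more often than lost peaks did. The promoter class held 2438 gained peaks, 14.1% of the set (13.6% to 14.6%), against 366 lost peaks, 5.23% (4.74% to 5.78%). Shared peaks lay between, with 11.1% of the shFoxA1 EtOH and 11.6% of the shEV EtOH ones. Seen from the lists, 55.1% of the 4426 promoter peaks of shFoxA1 EtOH were gained, and 15.0% of the 2446 promoter peaks of shEV EtOH were lost. Peaks labelled as CpG islands away from promoters split in the same way, with 58.4% of 1616 gained and 18.2% of 737 lost. Introns held near-equal shares of the sets, 38.95% of gained and 39.7% of lost peaks. Intergenic sequence held 40.8% of gained and 52.0% of lost peaks. Within 1 kb of a transcription start site (TSS) lay 21.2% of gained, 8.32% of lost and 17.0% of shared peaks of shFoxA1 EtOH.

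**Figure D1:**
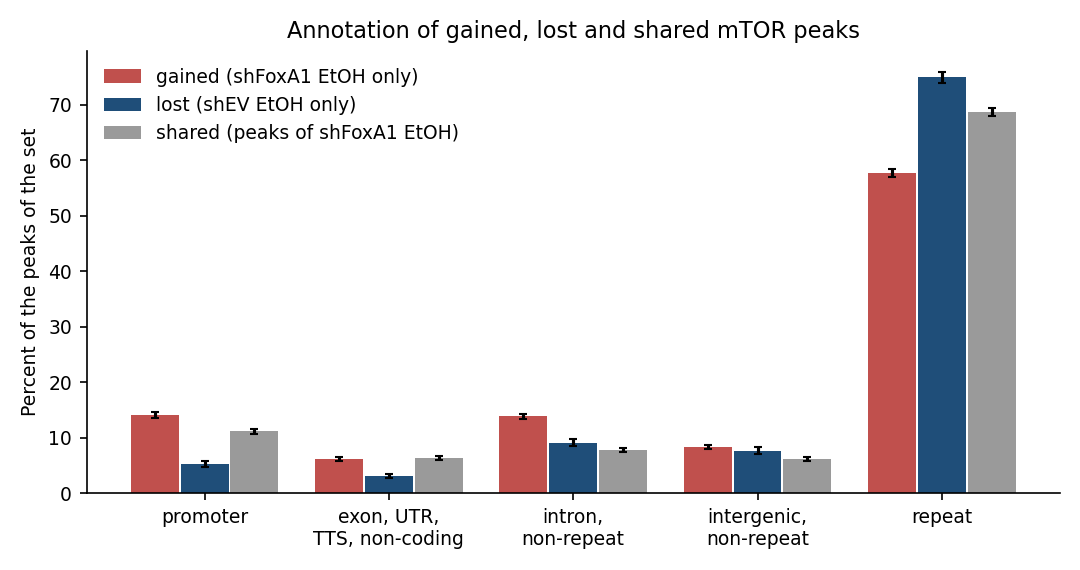
Percent of gained, lost and shared peaks (shared: shFoxA1 EtOH list) in each of 5 exclusive annotation classes, with 95% Wilson intervals for counting error; 1 library per group. Promoter peaks make up 14.1% of gained and 5.23% of lost peaks, and repeats 57.7% of gained and 74.9% of lost peaks.

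Repeats took the larger place among lost peaks. They held 57.7% of gained peaks (56.9% to 58.4%), 74.9% of lost peaks (73.9% to 75.9%) and 68.7% of the shared shFoxA1 EtOH peaks. LINE-1 elements, the retrotransposons known as L1, were the main part, at 30.6% of gained and 46.1% of lost peaks, against 31.3% of shared ones. Within L1 the young primate families L1PA and L1HS accounted for 17.8% of gained and 28.5% of lost peaks, both above the 14.3% of shared peaks. Older L1M elements held 10.5% of gained, 14.1% of lost and 14.3% of shared peaks. The endogenous retroviruses of the ERVK family went the other way: they were 1.76% of gained and 1.57% of lost peaks but 5.55% of shared ones, so that 23.5% of their shFoxA1 EtOH peaks were gained and 10.1% of their shEV EtOH peaks lost. This was not particular to ERVK. ERV1 elements held 4.26% of gained, 4.96% of lost and 8.08% of shared peaks, and ERVL-MaLR elements 5.54%, 5.43% and 8.51%. ERVL elements held near-equal shares (0.642%, 0.629% and 0.650%). SVA elements, composite GC-rich retroposons with a median of 66.6% GC in shFoxA1 EtOH and 66.7% in shEV EtOH, had 47.6% of 743 shFoxA1 EtOH peaks gained and 19.1% of 476 shEV EtOH peaks lost. No source used here says how reads that match several copies were placed, and young L1, SVA and satellite copies are the ones this can affect.

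GC content separated the sets. The median gained peak had 46.4% GC (46.1% to 46.7%; quartiles 39.2% and 58.8%) and the median lost peak 40.4% (40.2% to 40.6%; quartiles 37.3% and 47.7%), with 43.75% for shared peaks of shFoxA1 EtOH. Peaks over 60% GC were 23.2% of gained and 8.71% of lost peaks. In the shFoxA1 EtOH list the gained share was 42.0% for peaks under 35% GC and 57.1% for peaks over 65% GC. In the shEV EtOH list the lost share was 30.8% for peaks under 35% GC, 34.9% at 35% to 40% and 15.9% over 65%. The lists themselves differed in the same direction, with medians of 44.9% GC in shFoxA1 EtOH and 42.6% in shEV EtOH. The R1881 lists had medians of 44.8% with shFoxA1 and 42.5% with shEV. Whether the amplification or the sequencing of the libraries favoured GC-rich DNA to a different degree was not tested.

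**Figure D2:**
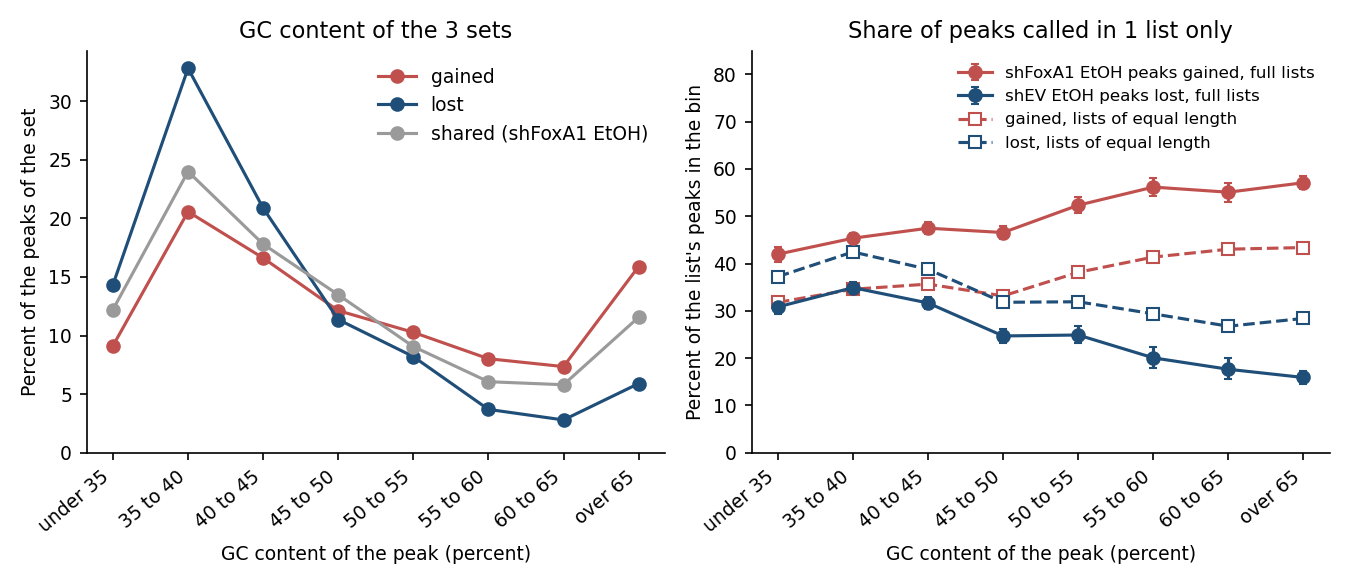
Left, percent of gained, lost and shared peaks (shared: shFoxA1 EtOH list) in 8 bins of peak GC content; right, percent of each list's peaks that were called in that list only, with filled circles and 95% Wilson intervals for the full lists and open squares after the shFoxA1 EtOH list was cut to 24948 peaks. In full lists the gained share is 57.1% and the lost share 15.9% over 65% GC; with equal lengths these are 43.4% and 28.4%, and under 45% GC the lost share is the larger one.

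Within promoters and within repeats the sets were close in GC. Gained promoter peaks had a median of 64.2% GC and lost ones 63.0%, with 63.8% for shared ones of shFoxA1 EtOH. Peaks in repeats had medians of 40.7% (gained) and 39.5% (lost). The gap was wide away from both: non-repeat intron peaks had medians of 55.2% GC among gained and 46.1% among lost peaks, and non-repeat intergenic peaks 50.8% and 43.75%. As means over all peaks, GC was 49.4% for gained and 43.6% for lost peaks, a difference of 5.78 percentage points. With the gained peaks weighted to the class mix of the lost peaks, over the 5 classes drawn above, the difference was 2.75 points.

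With lists of equal length the differences in promoter share and GC kept their direction. The shFoxA1 EtOH list was cut to its 24948 highest-scoring peaks, with ties at the lowest score kept, 42, broken at random. It then gave 9146 gained and 8962 lost peaks, near-equal numbers that the equal lengths impose. Promoters were 14.2% of gained (13.5% to 15.0%) and 6.80% of lost peaks (6.29% to 7.34%). Median GC was 45.4% for gained (44.98% to 45.7%) and 40.8% for lost peaks (40.6% to 41.0%), and repeats held 62.3% of gained and 71.9% of lost peaks. Both differences were smaller than in the full lists. When each list was limited to its 10000 highest scores, promoters were 16.1% of 2935 gained and 5.28% of 2919 lost peaks, and median GC was 46.6% for gained and 39.7% for lost peaks. Both differences were then larger than in the full lists.

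Gained and lost peaks were mostly low-scoring. The score is the authors' own value per peak. Its definition is not stated, and it is read only within its list. Both sets had a median score of 42, against 103 for shared peaks of shFoxA1 EtOH and 76 for shared peaks of shEV EtOH. With each list divided by score into 5 groups of near-equal size (quintiles), 4.31% of shFoxA1 EtOH peaks were gained in the highest quintile and 82.2% in the lowest. For lost peaks in the shEV EtOH list these shares were 1.56% and 55.5%. At each level of score gained peaks lay at promoters more often than shared ones, from 18.5% against 9.45% in the highest quintile to 13.6% against 13.0% in the lowest. Lost peaks lay at promoters less often than shared ones in each quintile. In the highest quintile 0 of 78 lost peaks lay at a promoter, which allows a share of up to 3.85%, against 6.33% of shared ones, and in the lowest quintile the shares were 7.44% of lost and 19.1% of shared peaks. Few members sat at the edge of the rule: 99 gained and 94 lost peaks had a peak of the other list within 100 bp, and 495 shared shFoxA1 EtOH peaks and 502 shared shEV EtOH peaks overlapped over less than 50% of the shorter peak.

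**Figure D3:**
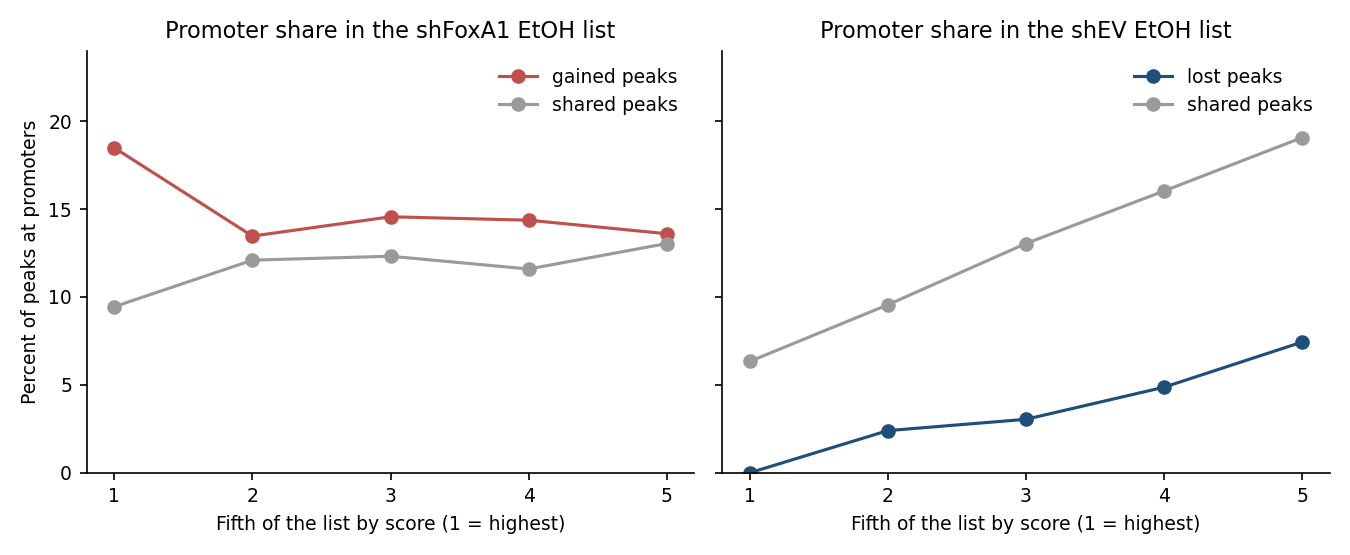
Percent of peaks at promoters in each score quintile of the list (1 is the highest), for gained and shared peaks of shFoxA1 EtOH on the left and for lost and shared peaks of shEV EtOH on the right; 1 library per group. Gained peaks lie above shared ones in all 5 quintiles, from 18.5% against 9.45% to 13.6% against 13.0%, and lost peaks below shared ones in all 5.

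The reference promoters give the same comparison without the peaks' own annotation. Of the 15842 coding windows, 2173 (13.7%) were overlapped by a peak of shFoxA1 EtOH only, 302 (1.91%) by a peak of shEV EtOH only, 1520 (9.59%) by both and 11847 by neither. The 3 bound groups were alike in base composition, with medians of 67.3% GC for shFoxA1 EtOH only, 67.7% for shEV EtOH only and 67.3% for both, against 60.7% for unbound windows. Among windows over 70% GC, 34.99% had a shFoxA1 EtOH peak and 17.7% a shEV EtOH peak, and among windows under 50% GC 4.45% and 2.17%. Peaks were more frequent at high GC in each list, and the ratio between the lists was similar at both ends.

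Motif content was close between the bound groups for GGGCGG. For rarer motifs the shares in the 302 windows bound in shEV EtOH only had wide intervals. GGGCGG was found in 75.7% of windows bound in shFoxA1 EtOH only, 75.5% of those bound in shEV EtOH only and 73.9% of those bound in both, against 58.5% of all windows. CCGGAAG was found in 21.1% (19.5% to 22.9%), 16.9% (13.1% to 21.5%) and 20.4% (18.4% to 22.5%) in the same order, against 14.2% of all. The YY1 motif was found in 7.73% (6.68% to 8.93%), 5.30% (3.29% to 8.43%) and 8.42% (7.13% to 9.92%), against 4.81% of all. For both motifs the interval for shEV EtOH only overlaps those of the other bound groups. TATAAA was less frequent in bound windows, at 4.83% (4.01% to 5.82%), 7.62% (5.13% to 11.2%) and 4.28% (3.37% to 5.41%), against 9.63% of all. The forkhead motif TGTTTAC was found in 2.25% of windows bound in shFoxA1 EtOH only (1.71% to 2.97%), in 4.30% of those bound in shEV EtOH only (2.53% to 7.22%) and in 1.58% of those bound in both (1.06% to 2.34%), against 2.61% of all. The interval for shEV EtOH only overlaps that for shFoxA1 EtOH only and lies above that for both, and its share rests on 13 of 302 windows. The second forkhead form, TATTTAC, was found in 0.828%, 1.32% and 1.25%, against 1.99% of all. The AGAACA half-site was found in 7.32%, 6.29% and 6.78%, against 11.2% of all.

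More genes had a gained than a lost peak nearby. Of 20033 protein-coding genes, 9823 (49.0%) had a shFoxA1 EtOH peak within 50 kb of the TSS and 7305 (36.5%) a shEV EtOH peak. A gained peak lay near 6309 genes (31.5%) and a lost peak near 2462 (12.3%), and 1173 genes had both kinds. In the promoter class 3729 genes had a shFoxA1 EtOH peak and 2066 a shEV EtOH peak. A gained promoter peak was found at 2077 genes (10.4%) and a lost one at 311 (1.55%), with 26 genes in both groups. These percentages are the background against which the lists below are read.

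The 10 coding genes with the highest-scoring gained peaks were TXNIP (401), SMN2 (375), FOXJ3 (297), TUBB3 (284), SLC13A1 (284), CNTNAP2 (284), SHH (259), HDAC9 (259), C19orf73 (247) and HNRNPH1 (235). SMN2 encodes a protein of spliceosomal RNP assembly and has a near-identical copy, SMN1, to whose transcript the peak is annotated, so its reads cannot be assigned to either. TUBB3, a neuronal tubulin, had its peak on a CpG island in intron 1. SHH encodes a secreted morphogen, and its peak lay in intergenic sequence 16691 bp away. The peaks of SLC13A1, CNTNAP2 and HDAC9 lay in L1M elements of 28.1% to 36.3% GC, so high score and high GC did not always go together. The other leading promoters were FEN1 and BAAT (223 each), then GABPB1, BTRC and ARHGEF5 (211 each). FEN1 is a flap endonuclease of DNA replication, GABPB1 a subunit of an ETS factor and BTRC the substrate receptor of an SCF ubiquitin ligase. Every one of these 15 peaks overlapped a peak in both R1881 lists, shEV R1881 included, and was missing from the shEV EtOH list only.

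The 10 genes with the highest-scoring lost peaks were EPN1 (289), TCIM (276), UGT2B15 (203), ARMC3, COX18 and HTR1F (180 each), ROS1 (169), ITGB3BP and SPIN2B (158 each) and THEM4 (147). None of these 10 peaks lay at a promoter, and 9 of them lay in a repeat, 5 of these in L1. The EPN1 peak (chr19:55670424-55670840, 63.8% GC) lay in an intron of its neighbour U2AF2 and was the only one outside repeats. UGT2B15, an enzyme that inactivates androgens by glucuronidation, had its lost peak in an Alu of intron 2 and a gained peak of score 58 at its promoter, and belongs to a family of near-identical genes. The EPN1, TCIM, UGT2B15, ROS1, ITGB3BP and SPIN2B peaks overlapped no peak in either R1881 list. The leading lost promoters scored lower, from 125 at GPATCH2 and 115 at TAF5 to 76 at SEC24B, TMEM145 and DLGAP4. Between them were FBXO31 (105) and SMURF1, NETO2, FOS and NCOA1 (85 each). SMURF1 is a ubiquitin ligase of the TGF-beta pathway, FOS an immediate-early AP-1 subunit and NCOA1 a coactivator of steroid receptors. Of these 10 lost promoter peaks 8 overlapped a shFoxA1 R1881 peak and 4 a shEV R1881 peak. Over all lost promoter peaks the shares were 49.5% and 18.9%.

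For scale, the coding genes with the highest-scoring shared peaks were NPAS4 (8899), DUX4 (7981), ARHGEF18 (7864), TXNL4A (4761) and SIGLEC16 (4249) in shFoxA1 EtOH. The strongest gained peak thus scored far below the strongest shared ones. DUX4 lies in a repeat array, and its reads cannot be assigned to 1 copy.

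**Figure D4:**
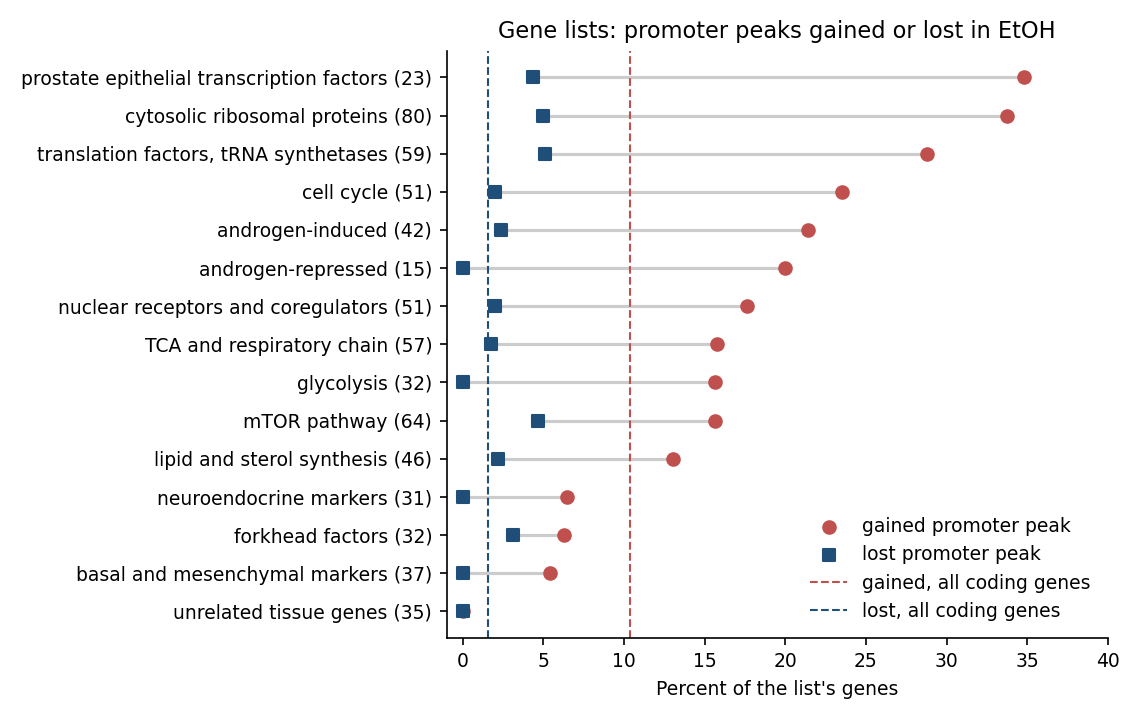
Percent of the genes of 15 lists (number of genes in brackets) with a gained (circles) or a lost (squares) promoter peak, sorted by the gained share; dashed lines give the shares over all 20033 coding genes, 10.4% gained and 1.55% lost. Prostate epithelial transcription factors, ribosomal proteins and translation factors lie highest, and genes of unrelated tissues are at 0 for both.

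The prostate epithelial transcription factors had the highest share of gained promoters, 8 of 23 (34.8%, against 10.4% of all coding genes), and 1 lost, NFIB (20). NFIX (score 134) and NFIB (123), transcription factors of the nuclear factor I family, led them. Others were TFAP2A, FOXA1 and ONECUT2 (58 each), EHF (49) and GATA3 (34). Each of the 8 gained promoter peaks overlapped a shFoxA1 R1881 peak and 3 overlapped a shEV R1881 peak. Over all gained promoter peaks the shares were 54.7% and 22.5%. GATA2, a zinc-finger pioneer factor, had a gained CpG-island peak (103) in an intron. Lost peaks were also frequent near these genes, at 9 of 23 within 50 kb (39.1%, against 12.3%), among them an L2 element upstream of HOXB13 (95) and an AT-rich intron site of NFIB (85, 30.3% GC). With lists of equal length 11 of these genes had a gained peak within 50 kb (47.8%, against 18.7% of all coding genes). Lost peaks lay near 11 (47.8%, against 16.0%). At promoters 6 had a gained (26.1%, against 5.64%) and 2 a lost peak (8.70%, against 2.61%).

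Among 42 androgen-induced genes 9 had a gained promoter peak (21.4%, against 10.4% of all coding genes) and 1 a lost one (2.38%, against 1.55%). PMEPA1 (113), a TGF-beta antagonist, and STEAP1 (103), a cell-surface metalloreductase, led. MAF, ALDH1A3, INPP4B, STEAP2, STEAP4 and UAP1 scored 21 to 58. SLC45A3, a prostate membrane protein, had a gained CpG-island peak of 94. The lost promoter peak was at TPD52 (50), and TRPM8, a cold-activated channel, had a lost Alu peak of 95. Within 50 kb 24 of them had a gained peak (57.1%, against 31.5% of all coding genes) and 7 a lost one (16.7%, against 12.3%). With lists of equal length 15 had a gained (35.7%, against 18.7%) and 11 a lost peak (26.2%, against 16.0%) within 50 kb. At promoters 4 had a gained (9.52%, against 5.64%) and 2 a lost one (4.76%, against 2.61%). Of 15 androgen-repressed genes, 10 had a gained (66.7%, against 31.5%) and 5 a lost peak (33.3%, against 12.3%) within 50 kb. With equal lengths 8 had a gained (53.3%, against 18.7%) and 6 a lost one (40%, against 16.0%). PMP22, a myelin protein gene, had a gained peak on exon 2 (75).

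Nuclear receptors and coregulators had gained promoter peaks at 9 of 51 genes (17.6%, against 10.4%) and a lost one at 1 (1.96%, against 1.55%). ESRRA (84), an orphan receptor of mitochondrial genes, and NCOA4 (75), a ferritinophagy receptor first described as a coactivator, led, followed by CREBBP (49), NR1H2 (42), RARA (34), NCOA3 and NR4A1 (27 each), PGR (21) and NCOA1 (15). NCOA1 had both kinds at separate annotated starts, a lost peak of 85 and a gained one of 15. CREBBP and KMT2C each had a lost peak of 115 outside promoters. Promoter peaks of any kind were present at 23 of the 51 in shFoxA1 EtOH (45.1%, against 18.6% of all coding genes). In shEV EtOH they were present at 15 (29.4%, against 10.3%). With lists of equal length 3 genes had a gained promoter peak (5.88%, against 5.64% of all coding genes). Lost ones were at 2 (3.92%, against 2.61%). With the 10000 highest scores of each list the promoter counts were 2 gained (3.92%, against 2.12%) and 3 lost (5.88%, against 0.654%). Within 50 kb they were 9 gained (17.6%, against 6.86%) and 11 lost (21.6%, against 5.48%).

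Forkhead genes had few gained promoters, 2 of 32 (6.25%, against 10.4% of all coding genes), FOXJ3 (peaks of 297 and 42) and FOXA1. The 1 lost promoter (3.125%, against 1.55%) was FOXN3 (20, with a second lost peak of 20 in a MIR element). Within 50 kb 11 genes had a gained peak (34.4%, against 31.5% of all coding genes) and 6 a lost one (18.75%, against 12.3%). Of the 40 shFoxA1 EtOH peaks at forkhead genes 13 were gained (32.5%, against 51.2% over all coding genes). Of the 39 shEV EtOH peaks 10 were lost (25.6%, against 25.3%), a share level with that over all coding genes. FOXO6 had a gained peak in its 5′ UTR (113), and FOXB1, FOXC1, FOXD1, FOXJ2, FOXK1, FOXN1, FOXN3 and FOXP2 1 gained peak each (21 to 75). FOXP1, a repressor expressed in prostate epithelium, had 1 peak in shFoxA1 EtOH and 5 in shEV EtOH, with 3 lost (14 to 58). That 1 peak was 1816 bp wide and overlapped both shared shEV EtOH peaks. FOXK2 had 3 peaks in shFoxA1 EtOH and 5 in shEV EtOH, with 2 lost, both in Alu elements. Both of these lost peaks overlapped a shFoxA1 R1881 peak. In the R1881 lists FOXK2 had 7 peaks with shFoxA1 and 3 with shEV, and FOXP1 had 4 and 3. FOXA2 and FOXE1 had 1 lost peak each, at 42 on a CpG island and 76 in an L1M element, and FOXI1 1 at 27. With lists of equal length 5 forkhead genes had a gained peak within 50 kb (15.6%, against 18.7% of all coding genes). Lost peaks lay near 7 (21.9%, against 16.0%).

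Genes of the mTOR pathway had gained promoter peaks at 10 of 64 (15.6%, against 10.4% of all coding genes) and lost ones at 3 (4.69%, against 1.55%). Promoter peaks of any kind were frequent in both lists. They were present at 24 of these genes in shFoxA1 EtOH (37.5%, against 18.6%) and at 16 in shEV EtOH (25%, against 10.3%). Within 50 kb 50.5% of the 95 shFoxA1 EtOH peaks were gained (51.2% over all coding genes). Of the 59 shEV EtOH peaks 23.7% were lost (25.3% over all coding genes). TFEB (84) and TFE3 (66), lysosome and autophagy factors that mTORC1 keeps out of the nucleus, led the gained promoters. Others were the cap-binding protein EIF4E (58), WDR24 (49) and SEC13 (42) of the GATOR2 complex, NPRL3 of the GATOR1 complex (34), GRB10 (42), RPTOR (42), which is the scaffold of mTORC1, and SESN1 (34). Of the 10 gained promoter peaks 5 overlapped a shFoxA1 R1881 peak and none a shEV R1881 peak. Over all gained promoter peaks the shares were 54.7% and 22.5%. Away from promoters, STK11, the LKB1 kinase, and PRR5, an mTORC2 subunit, had gained peaks of 166, and RICTOR of mTORC2 a gained CpG-island peak of 103. The lost promoters were FNIP1 (42), SEH1L (34) and PIK3CA (20), and PRKAA1 of the AMP-activated kinase had a lost L1 peak of 76. With equal lengths the promoter counts were 6 gained (9.38%, against 5.64% of all coding genes) and 5 lost (7.81%, against 2.61%).

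Protein synthesis genes had both gained and lost promoter peaks more often than the 10.4% and 1.55% of all coding genes. Of 80 cytosolic ribosomal protein genes, 27 had a gained promoter peak (33.75%) and 4 a lost one (5%). Promoter peaks were present at 40 of them in shFoxA1 EtOH (50%, against 18.6% of all coding genes) and at 18 in shEV EtOH (22.5%, against 10.3%). The highest gained ones were RPL29 (113), RPS16 (103) and RPS15, RPL13A and RPL32 (84 each), and the range was 15 to 113. Of the 27, 15 overlapped a shFoxA1 R1881 peak and 5 a shEV R1881 peak, against 54.7% and 22.5% of all gained promoter peaks. RPL29 and RPS16 overlapped neither. Among the lost ones were RPL3 (34), RPL6 (20, annotated to PTPN11) and RPL24 (14). RPL3 also had a gained promoter peak (49) at chr22:39320063-39320586, next to the lost one at chr22:39319590-39320004. Ribosomal protein genes have many processed pseudogenes, which share their exons but not their promoters. Some of these peaks are annotated to a small nucleolar RNA inside the gene.

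Translation factors and tRNA synthetases had 17 gained promoters of 59 (28.8%, against 10.4% of all coding genes) and 3 lost (5.08%, against 1.55%). DARS (144), the aspartyl-tRNA synthetase, and EIF5 (113) and EIF4G2 (84), initiation factors, led. Of the 17 peaks 14 overlapped a shFoxA1 R1881 peak and 6 a shEV R1881 peak, against 54.7% and 22.5% of all gained promoter peaks. The lost ones were EEF1D (67), EIF4G1 (50) and GARS (14). EIF4G1 also had a gained one (42), annotated to another start. It lay at chr3:184314627-184315586, next to the lost one at chr3:184313947-184314509. With equal lengths this list had 12 gained (20.3%) and 4 lost promoters (6.78%). Ribosomal proteins had 15 (18.75%) and 6 (7.5%), against 5.64% and 2.61% of all coding genes.

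Cell cycle genes had 12 gained promoters of 51 (23.5%, against 10.4% of all coding genes) and 1 lost (1.96%, against 1.55%), MKI67 (27). BUB1B (84), a spindle checkpoint kinase, RB1 (66), TYMS, RBL2 and PLK1 (58 each) led, followed by CDKN2A, CCND1, CDC25A and MYC (42 each), CDC20 and ORC1 (27 each) and AURKA (21). The ORC1 and AURKA peaks are annotated to facing genes, PRPF38A and CSTF1. Of the 12, 8 overlapped a shFoxA1 R1881 peak and 1, at CDKN2A, a shEV R1881 peak. Over all gained promoter peaks the shares were 54.7% and 22.5%. CCND1, the cyclin D1 gene, also had a gained peak of 113 in its 3′ UTR. With equal lengths the promoter counts were 7 gained (13.7%, against 5.64% of all coding genes) and 1 lost (1.96%, against 2.61%).

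Metabolic genes stood nearer the background. TCA cycle and respiratory chain genes had 9 gained promoters of 57 (15.8%, against 10.4% of all coding genes). They were led by CYCS (75), the cytochrome c gene. The 1 lost promoter (1.75%, against 1.55%) was IDH1 (20). With equal lengths 4 had a gained (7.02%, against 5.64%) and 1 a lost promoter peak (1.75%, against 2.61%). Glycolysis genes had 5 gained promoters of 32 (15.6%, against 10.4%) and none lost. The gained ones were PFKFB3 (58), ALDOA (49), SLC16A1 and LDHA (42 each) and PFKL (27). With equal lengths glycolysis turned to 2 gained (6.25%, against 5.64% of all coding genes) and 3 lost promoters (9.375%, against 2.61%). In the full lists promoter peaks of any kind were present at 13 of the 32 in shFoxA1 EtOH (40.6%, against 18.6%). In shEV EtOH they were present at 8 (25%, against 10.3%). Lipid and sterol genes had 6 gained promoters of 46 (13.0%, against 10.4%) and 1 lost (2.17%, against 1.55%), ME1 (14). ACACA (75), which makes malonyl-CoA, DGAT1 (66), FDFT1 (34) and HMGCS1 (27) were among those with gained ones, and SREBF2, the regulator of sterol synthesis, had a gained peak of 123 on exon 1. Of the 6 gained promoter peaks 2 overlapped a shFoxA1 R1881 peak and none a shEV R1881 peak. Over all gained promoter peaks the shares were 54.7% and 22.5%. With equal lengths 2 lipid and sterol genes had a gained promoter peak (4.35%, against 5.64% of all coding genes) and 1 a lost one. In the full lists promoter peaks of any kind were present at 15 of the 46 in shFoxA1 EtOH (32.6%, against 18.6%). In shEV EtOH they were present at 8 (17.4%, against 10.3%).

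The lists for other lineages had few gained promoter peaks. Neuroendocrine markers had gained peaks at TUBB3 and in the 5′ UTR of POU3F2 (123), a neural transcription factor. Lost ones lay on an exon of DLL3 (50) and on a CpG island at FOXA2 (42). Within 50 kb 9 of these genes had a gained peak (29.0%, against 31.5% of all coding genes). Lost peaks lay near 4 (12.9%, against 12.3%). At promoters 2 of the 31 markers had a gained peak, EZH2 (66) and PEG10 (58, annotated to the neighbouring gene SGCE). Their 6.45% lay under the 10.4% of all coding genes in full lists and the same count of 2 lay above the 5.64% of all coding genes with equal lengths. Basal and mesenchymal markers had 2 gained promoters of 37 (5.41%, against 10.4% of all coding genes), ZEB1 (84) and SNAI1 (27), and none lost. Genes of unrelated tissues had no gained or lost promoter peak among 35. Within 50 kb 5 had a gained (14.3%, against 31.5%) and 4 a lost peak (11.4%, against 12.3%).

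The R1881 lists, which share no library with the EtOH lists, show how often an EtOH peak was called again. Of gained peaks 41.3% (40.6% to 42.1%) overlapped a shFoxA1 R1881 peak and 22.3% (21.7% to 22.95%) a shEV R1881 peak, and 52.0% overlapped neither. Of lost peaks 34.1% (33.0% to 35.2%) overlapped a shFoxA1 R1881 peak and 23.2% (22.2% to 24.2%) a shEV R1881 peak, and 57.1% overlapped neither. Lost peaks were thus found again more often with the FoxA1 hairpin than with the empty vector. For shared peaks of shFoxA1 EtOH the shares were 83.0% and 71.2%. The shFoxA1 R1881 list is the longer one, with 39570 peaks against 26074. When it was cut to its 26074 highest-scoring peaks, an alternative chosen after seeing the data, 26.7% of gained and 23.1% of lost peaks overlapped it. The shEV R1881 shares were 22.3% of gained and 23.2% of lost peaks, so that for lost peaks the 2 lists were level.

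Promoter peaks leaned to the FoxA1 hairpin in gained, lost and shared sets alike. Gained promoter peaks overlapped a shFoxA1 R1881 peak in 54.7% and a shEV R1881 peak in 22.5% of cases, and lost promoter peaks in 49.5% and 18.9%. With the shFoxA1 R1881 list cut, the first values were 31.5% for gained and 26.5% for lost promoter peaks. Shared promoter peaks of shFoxA1 EtOH were then found again at 77.2% in shFoxA1 R1881 and 66.4% in shEV R1881. L1 peaks did not lean in this way: with the cut list 25.9% of gained and 24.4% of lost L1 peaks were found again in shFoxA1 R1881, and 25.6% and 25.9% in shEV R1881. The 1000 highest-scoring gained peaks were found again in 72.9% (shFoxA1 R1881) and 50.9% (shEV R1881), and the 1000 highest-scoring lost peaks in 50.6% and 41.1%.

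**Figure D5:**
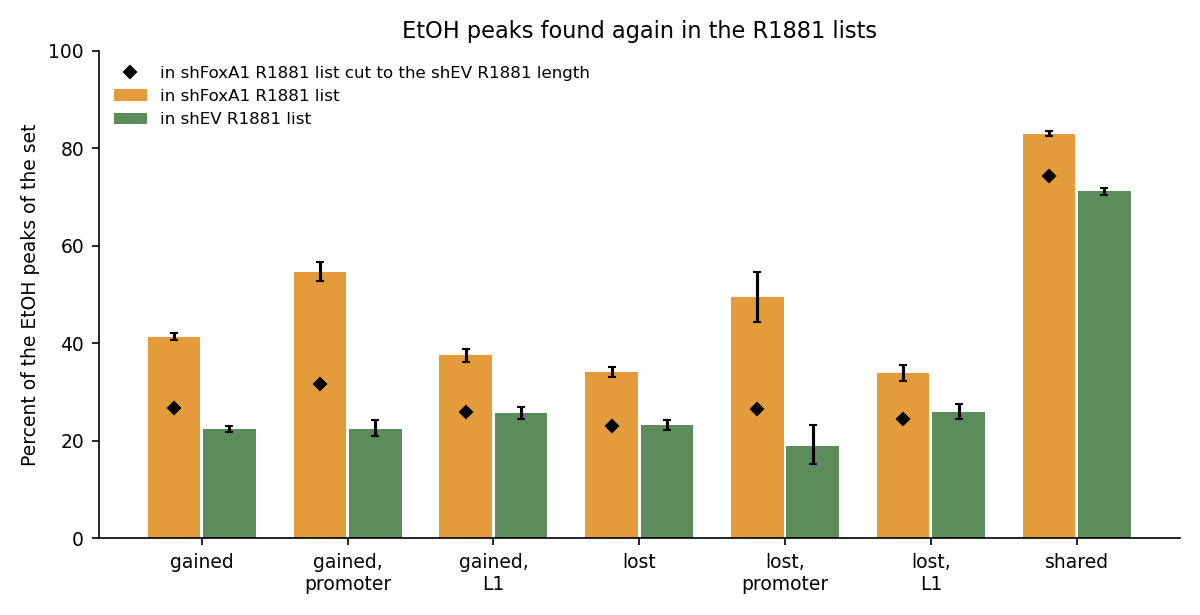
Percent of gained, lost and shared EtOH peaks (shared: shFoxA1 EtOH list) that a peak of the shFoxA1 R1881 list or the shEV R1881 list overlapped, with 95% Wilson intervals; diamonds give the shFoxA1 R1881 share after that list was cut to the length of the shEV R1881 list. Gained peaks were found again at 41.3% and 22.3% and lost peaks at 34.1% and 23.2%, and with the cut list lost peaks were at 23.1%.

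At the level of genes, 2225 had a promoter-class peak in shFoxA1 EtOH only and 562 in shEV EtOH only. These groups differ from the counts of gained and lost promoters above because an overlapping peak of the other list can be annotated to another class or gene. Of the 2225, 47.7% had a promoter peak in shFoxA1 R1881 and 22.3% in shEV R1881. Of the 562, 43.2% had one in shFoxA1 R1881 and 31.3% in shEV R1881. Genes with a promoter peak in both EtOH lists kept one in 83.0% and 60.9%.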

How the data were processed

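mTOR was immunoprecipitated with cross-linked DNA and sequenced as 150 bp paired-end reads, per the labels' protocols. The build was hg38 and the listed tools, with no order, were deepTools 3.5.0, HOMER 4.11.1, MACS2, Picard 2.0.1, BWA 0.7.12 and Trimmomatic 0.36, per the submitters' processing notes. Each list is HOMER's annotation of 1 library's peaks, per the file headers. Scores of peaks are values the authors deposited. GC is a deposited fraction, printed here as a percentage. The inputs, and 566 shFoxA1 EtOH and 556 shEV EtOH peaks on other sequences, were not analysed here. No read totals and no settings of the peak calling were in the sources used here.

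Overlaps, shares and medians were computed in Python 3.11.15 with pandas 2.3.3, NumPy 2.4.6 and SciPy 1.17.1, after the overlap step was tested on simulated intervals. Shares carry Wilson and medians order-statistic 95% intervals. Peaks went to the file's nearest gene within 50 kb. All 642 list symbols matched RefSeq (GRCh38.p14), and of 3149 promoter peaks with a reference window 62.9% had a deposited TSS within 5 bp of its start. Genes named are the 10 with the highest-scoring gained and lost peaks, overall and at promoters, the 5 highest shared, the leading 3 gained and 2 lost of each list, list members with promoter peaks where 12 or fewer, and forkhead genes with either kind. Some genes so selected are not reported here. Members and lists were chosen with earlier results of these data known. HNRNPH1's promoter is not printed because its peak lies outside the reference window. The promoter of SMN2 is not printed either. With 1 library per group there is no pairing and no test. Alternatives tried were list length, overlap, a gap, promoter distance, gene distance and leaving out repeats.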

Additional observations from a re-analysis of the deposited data

How the results depend on the processing

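No paired analysis was possible because each group has 1 library. Depth is unknown, and list length sets the numbers of gained and lost peaks. In each alternative gained peaks had a higher promoter share and median GC than lost peaks. Values that moved are these. With the shFoxA1 EtOH list cut to 24948 peaks there were 9146 gained peaks of 45.4% median GC and 1129 genes with a gained promoter; lost peaks had 6.80% promoters and 40.8% GC, with 523 genes. When each list was limited to its 10000 highest scores there were 2935 gained (16.1% promoters, 424 genes) and 2919 lost peaks (39.7% GC, 131 genes). With the 10000 highest-scoring peaks of 1 list against all of the other there were 1002 gained (43.9% GC, 119 genes) and 706 lost peaks (2.27% promoters, 39.03% GC, 13 genes). Without peaks in repeats there were 7849 gained (31.3% promoters, 58.6% GC) and 2228 lost peaks (17.2%, 48.5% GC). An overlap of at least 50% of the shorter peak gave lost peaks 6.02% promoters and 40.6% GC, and a 500 bp gap 4.63% promoters. Promoters taken as within 1000 bp of a TSS were 21.2% of gained and 8.32% of lost peaks, with 502 genes lost. For presence in R1881, chosen after seeing the data, a shFoxA1 R1881 list of equal length held 26.7% of gained and 23.1% of lost peaks. EtOH lists of equal length gave gained peaks 52.1% (shFoxA1 R1881) and 30.0% (shEV R1881), and lost peaks 39.3% and 26.1%. Why these moved beyond list length was not tested.

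Of the 15 gene lists, all had more genes with a gained than with a lost peak within 10, 50 and 100 kb. With equal lengths 10 did, 3 were level (prostate epithelial transcription factors, neuroendocrine markers and unrelated tissues) and 2 had more lost (forkhead, basal and mesenchymal). With the 10000 highest scores of each list 11 did, nuclear receptors and coregulators had more lost (9 gained, 11 lost), and prostate epithelial transcription factors, TCA and respiratory chain genes (3 and 3) and unrelated tissues were level.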

Other observations

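Some genes collected several gained or lost peaks within 50 kb, and those named here were chosen after their values were seen. Of the 6309 genes with a gained peak, 4612 had 1, 1240 had 2, 326 had 3 and 131 had more. NFIB had 9 gained and 4 lost peaks, PRKD1, a protein kinase D gene, 9 gained and 4 lost, and RXRA, the common partner of nuclear receptors, 9 gained and 1 lost. CCDC85C had 8 gained and none lost, with 9 peaks in shFoxA1 EtOH and 1 in shEV EtOH. Of the 2462 genes with a lost peak, 2143 had 1 and 285 had 2. PREX1, a Rac exchange factor gene, had 4 lost peaks, with none in shFoxA1 EtOH and 4 in shEV EtOH. MAGI3, a scaffold protein gene, had 4 lost and none gained, with 4 peaks in shFoxA1 EtOH and 8 in shEV EtOH.

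Chromosomes differed in the share of peaks called in 1 list. The gained share of shFoxA1 EtOH peaks ran between 26.9% on Y and 56.3% on 16, with 39.2% on 13. The lost share of shEV EtOH peaks ran between 19.1% on Y and 31.8% on 8.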
